A study of Homo sapiens with 6 samples.

Results

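Metallothioneins are small, cysteine-rich proteins that hold zinc and copper ions and also bind cadmium. Human cells carry a group of near-identical copies of the MT1 genes beside MT2A on chromosome 16, and their transcription is switched on by metals through the zinc-sensing factor MTF1. They are known in many tissues as stores of zinc and as scavengers of reactive oxygen, and MT2A is expressed in many of them. The metallothionein genes described here are MT2A and every gene whose symbol is MT1 followed by a single letter, taken from all lists of places at which the glycolytic enzyme GAPDH was crosslinked to RNA. The rule found 9 peaks at 8 distinct positions in 5 genes, of 1316 peaks and 947 genes in the lists as a whole.

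The cells were MOLM-13, an established human acute myeloid leukaemia line, and the groups were galactose, low glucose and normal glucose medium, with 2 samples each. GAPDH was crosslinked to RNA with ultraviolet light and precipitated, and the attached RNA was sequenced (CLIP-seq). The design asks whether the contacts of GAPDH with RNA change with the sugar that is fed to glycolysis. All groups share the same cell line and the same antibody precipitation, and the 2 samples of each group had been joined into 1 list of peaks.

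A peak is a stretch of genome around 1 or more crosslink sites, and a solitary site extended by the same length on either side gives a single-site peak, whose middle is the site. The lists hold positions and gene names alone, so the sequencing depth is unknown, no value per sample exists, and a gene that is missing from a list may have been bound below the level that was called. The level of a metallothionein transcript and its contact with GAPDH cannot be told apart in these lists. Of the 10 myeloid genes looked up, CEBPA alone was listed, in low glucose with a peak also annotated to a further gene. None of the 6 T and B cell genes looked up was listed. Of all 20046 annotated protein coding genes, 2.79% were listed in any medium. Because the lists hold no level of expression, these counts cannot check the cell type.

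The sequences at the middles of the 8 peak positions are given because they show how alike the sites of different genes are. Each is the 30 nt of hg38 around the middle on the plus strand, which is the strand of all 5 genes, and the capitals mark the base before the middle and the middle itself.

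MT2A exon 2, galactose and normal glucose, chr16:56609014-56609043: ctcctgcaaatgcaAAgagtgcaaatgcac
MT2A exon 1, low glucose, chr16:56608629-56608658: cgactctagccgccTCttcagctcgccatg
MT2A exon 3, low glucose, chr16:56609337-56609366: tgcagctgctgcgcCTgatgctgggacagc
MT1E exon 2, low glucose, chr16:56626487-56626516: gctcctgcaagtgcAAagagtgcaaatgca
MT1X exon 2, low glucose, chr16:56683187-56683216: ctcctgcaaatgcaAAgagtgcaaatgcac
MT1H exon 3, low glucose, chr16:56670952-56670981: gcaaaggggcgtcaGAgaagtgcagctgct
MT1H exon 2, normal glucose, chr16:56670528-56670557: ctcctgcaagtgcaAAaagtgcaaatgcac
MT1F exon 2, normal glucose, chr16:56658684-56658713: gcacctgcgctggtTCctgcaagtgcaaag

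MT2A was the only metallothionein with a peak in every medium. The galactose list held 1 metallothionein peak, on MT2A. The low glucose list held 5 peaks on 4 genes (MT2A with 2 peaks, MT1E, MT1H and MT1X), and the normal glucose list held 3 peaks on 3 genes (MT2A, MT1F and MT1H). Among the 337 galactose peaks this was a share of 0.297% (exact 95% binomial interval 0.00751 to 1.64%). It was 1.03% of the 484 low glucose peaks (0.336 to 2.39%) and 0.606% of the 495 normal glucose peaks (0.125 to 1.76%). These intervals overlap and cover counting error over peaks only, and without values per sample no difference between media could be tested.

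By gene, the metallothioneins made up 1 of 367 galactose genes, 4 of 512 low glucose genes and 3 of 533 normal glucose genes. A listing in all 3 media, as for MT2A, held for 15.7% of the 947 listed genes. MT1E and MT1X were listed in low glucose alone, as were 24.2% of listed genes, and MT1F was listed in normal glucose alone, as were 31.7%. MT1H was listed in low and normal glucose but not in galactose, a pattern shared by 5.39% of listed genes. Of the 4 metallothioneins in the galactose or the low glucose list, none was in galactose alone and 3 were in low glucose alone, and over all genes of these lists, of which galactose is the shorter, the shares were 20.9% and 43.3%. Of the 3 metallothioneins in the galactose or the normal glucose list, none was in galactose alone and 2 were in normal glucose alone, beside shares of 25.8% and 48.9% over all genes. Of the 5 in the low or the normal glucose list, 2 were in low glucose alone and 1 in normal glucose alone. The shares over all genes of these lists were 36.9% and 39.4%. The rule covers 10 annotated genes in a cluster of 75.6 kb (chr16:56608584-56684196), and the protein coding MT1A, MT1B, MT1G and MT1M and the pseudogene MT1L had no peak in any list.

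MT2A was listed at other places in low glucose than in galactose and normal glucose. In galactose its peak was chr16:56608979-56609079, and the normal glucose peak had the same start and end. This peak covers the whole of exon 2 with 35 nt of the flanking introns, and its middle is base 66 of the coding sequence, the last base of codon 22. In low glucose there was no peak on exon 2. One low glucose peak, chr16:56608594-56608694, had its middle in the 5'UTR in exon 1, 12 nt before the start codon and 61 nt into the transcript. The other, chr16:56609285-56609419, was 135 nt wide and thus held more than a single site, and its middle fell on the first base of the stop codon in exon 3.

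The low glucose middles of MT2A lay 385 and 323 nt from the exon 2 middle in the genome, or 78 and 118 nt in the spliced transcript, and no peak overlapped another. Among genes listed in both media of a pair, overlapping peaks were found for 86.8% in galactose and normal glucose, for 90.9% in galactose and low glucose and for 74.5% in low and normal glucose. MT2A belonged to the overlapping genes in the first of these pairs and to the others in the remaining pairs. Of the 149 genes listed in all 3 media, 5 (3.36%) had galactose and normal glucose peaks that overlapped while low glucose overlapped neither. These were MT2A, the actin gene ACTB, the ribosomal protein gene RPL10, the actin-binding TAGLN2 and the ribosome-associated RACK1, named after their positions were seen.

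**Figure D1:**
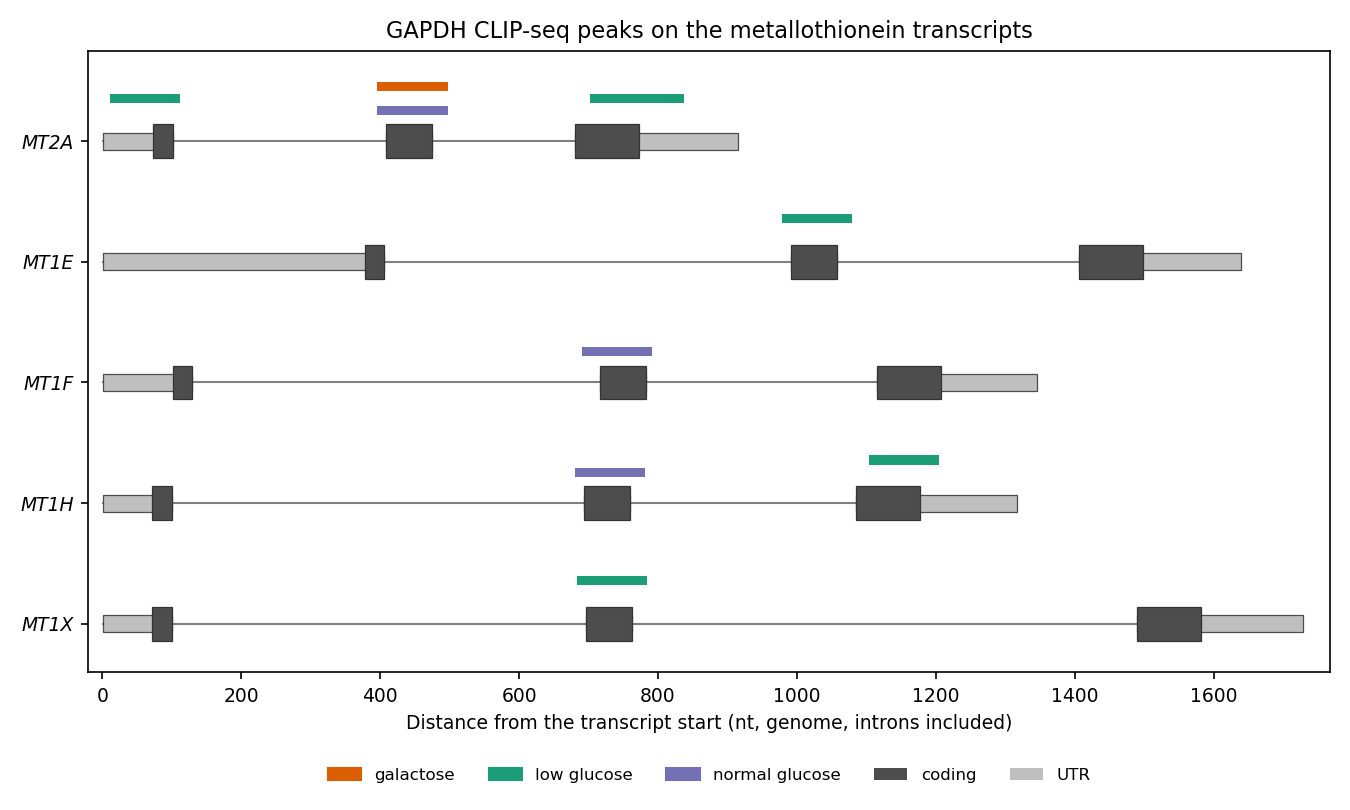
Peaks of galactose (orange), low glucose (green) and normal glucose (purple) drawn to scale over the exons of the 5 listed metallothionein genes, with the distance from the transcript start in nt on the x axis, dark boxes for coding sequence and light boxes for UTRs. Of the 8 distinct peaks, 5 cover exon 2, and the low glucose peaks of MT2A lie on exons 1 and 3.

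MT1H, an MT1 copy with the same 3-exon layout, was likewise listed at a different place in each glucose medium. In low glucose its peak was chr16:56670917-56671017, with the middle at coding base 164 in exon 3. In normal glucose it was chr16:56670493-56670593, with the middle at coding base 66 in exon 2. The middles were 424 nt apart in the genome and 98 nt apart in the spliced transcript. Of the 200 genes listed in both glucose media, 25.5% likewise had no overlapping peak.

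The other copies had a peak in 1 list each, always on exon 2. MT1E had chr16:56626452-56626552 in low glucose, with the middle at coding base 65. MT1X had chr16:56683152-56683252 in low glucose, with the middle at coding base 66. This MT1X peak was also annotated to the long non-coding RNA gene ENSG00000259827, which shares exons with MT1X on the same strand. It was the 1 other gene listed among the 29 annotated between NUP93 and BBS2, the genes on either side of the cluster. MT1F had chr16:56658649-56658749 in normal glucose, with the middle at coding base 53.

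All 5 listed genes had a peak on this exon, which is 66 nt long in each of them, and together these made 5 of the 8 distinct positions and 6 of the 9 peaks. In 3 genes (MT2A, MT1H and MT1X) the middle was coding base 66, in MT1E it was 1 nt away, and MT1F was the exception. Exon 2 held the only galactose peak (MT2A), 2 of the 5 low glucose peaks (MT1E and MT1X) and 3 of the 3 normal glucose peaks (MT2A, MT1F and MT1H). Thus each medium had a peak within 1 nt of coding base 66, in low glucose on different genes than in galactose or normal glucose.

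**Figure D2:**
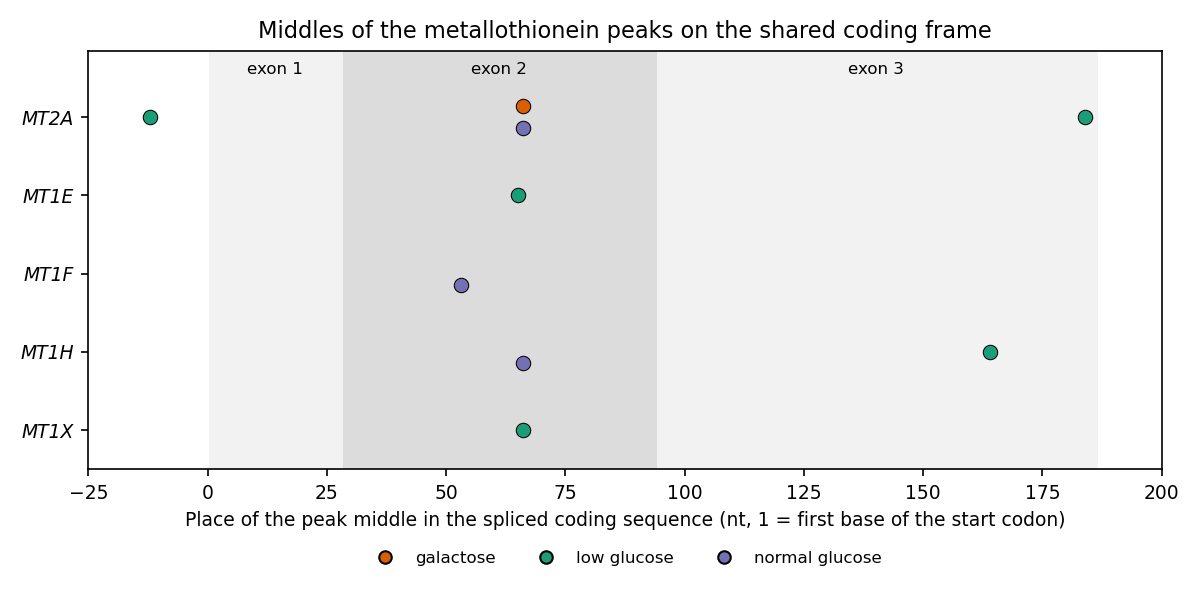
Place of each peak middle in the spliced coding sequence of its gene in nt, where 1 is the first base of the start codon, with 1 point per peak, coloured by galactose (orange), low glucose (green) and normal glucose (purple), and shading for the coding parts of exons 1 to 3. Points from all 3 media stand at base 65 or 66, and the points in exon 3 and before the start codon are all from low glucose.

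By transcript region, 7 of the 8 distinct positions had the middle in coding sequence (CDS), 1 in the 5'UTR and none in the 3'UTR or an intron. The CDS held the middle of 1 of 1 metallothionein peak in galactose, where 22.1% of all peaks on protein coding genes lay in the CDS. It held 4 of 5 in low glucose, against 31.6% of protein coding peaks, and all 3 of normal glucose, against 34.4%. The stop codon was counted as coding here, which decides the wide MT2A peak of low glucose, in which 70 nt were coding and 65 nt were 3'UTR. In each exon 2 peak 35 nt lay outside the exon because peaks were extended along the genome and not along the spliced RNA.

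The genes differ little in the sequence under these peaks. Between pairs of the 5 listed genes the coding sequences, 186 nt with the stop codon, were 88.7 to 93% identical, and exon 2 was 87.9 to 95.5% identical. Each codes for 61 residues, 20 of them with a cysteine codon. The printed window of MT2A exon 2 was letter for letter that of MT1X, and it also occurred in MT1A, which had no peak, and in the pseudogene MT1P1. At the same coding place MT1E differed from MT2A by 1 of 30 bases and MT1F and MT1H by 2. The MT1E window occurred unchanged in MT1G, MT1JP, MT1P3 and MT2P1, the MT1H exon 3 window in MT1F and the MT1H exon 2 window in MT1HL1.

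The remaining windows had no identical copy in the family. The MT2A window in the 5'UTR was at least 9 edits (bases substituted, inserted or deleted) from every one of the other 20 metallothionein loci compared, and the MT2A exon 3 window and the MT1F window were each at least 2 edits away. Among the MT2A peaks, the 30 nt at the middle therefore had an identical copy in another metallothionein locus only at the position shared by galactose and normal glucose, although parts of both low glucose peaks recurred elsewhere in the genome.

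**Figure D3:**
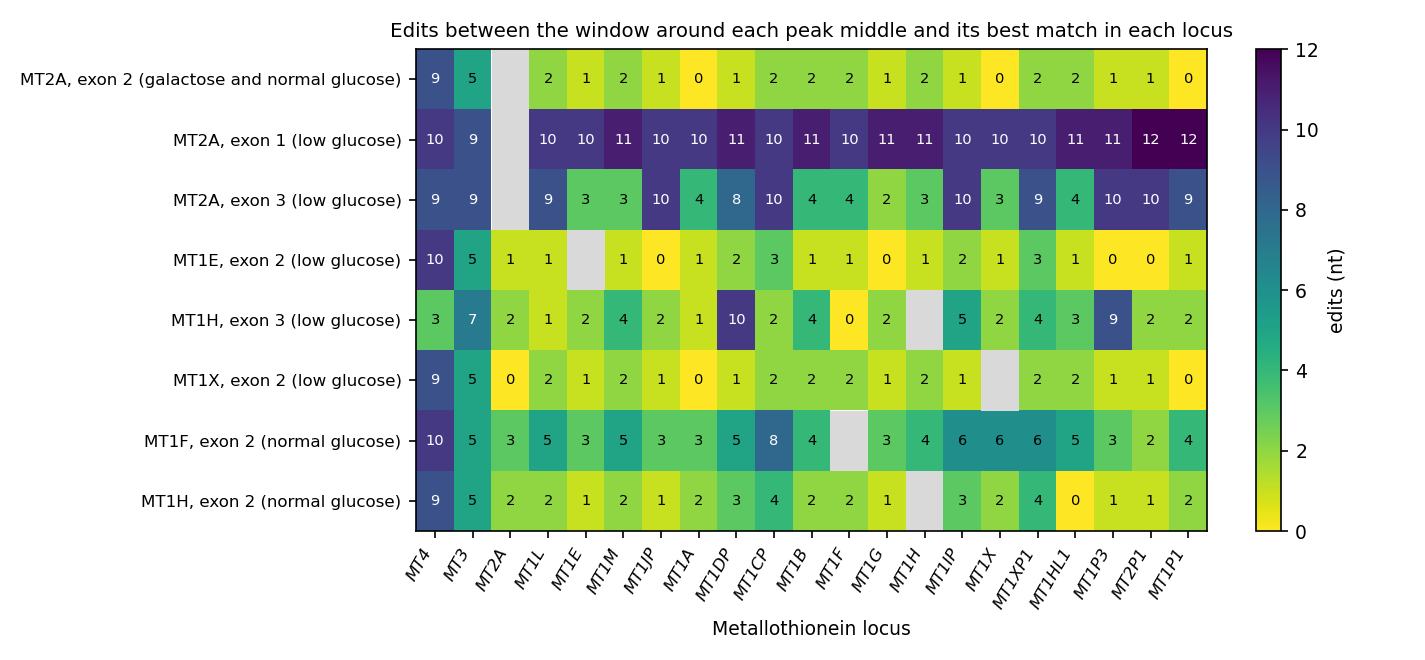
Smallest number of edits (nt, colour and printed number) between the 30 nt around each peak middle (rows, with the gene, exon and medium) and its best match in each metallothionein locus (columns), with the gene's own locus in grey. The MT2A exon 1 row stays at 9 edits or more, whereas 4 of the 5 exon 2 rows and the MT1H exon 3 row each hold at least 1 locus at 0 edits.

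Copies also matter for the assignment of reads, so each peak was cut into all its overlapping words of 30 nt and those found more than once in hg38 on either strand were counted. This share was 31.9% for the MT2A exon 2 peak of galactose and normal glucose, 15.3% and 32.1% for the MT2A exon 1 and exon 3 peaks of low glucose, and 83.3% for MT1E, 38.9% for MT1X and 34.7% for MT1H exon 3 in low glucose. It was 66.7% for MT1H exon 2 and 31.9% for MT1F in normal glucose. A share over 50% was thus reached by no galactose peak, by 1 of the 5 low glucose peaks and by 1 of the 3 normal glucose peaks. Over whole lists it was reached by 18.1% of galactose peaks, 13.6% of low glucose peaks and 25.3% of normal glucose peaks. With words of 50 nt the share for MT1E was 76.9% and no other peak exceeded 16.3%. All these words were cut along the genome, so those of each exon 2 peak include words that reach into the 35 nt outside the exon. A read of spliced RNA does not hold these intron bases, and the share over the spliced sequence was not counted.

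Some of the 72 words of 30 nt in the MT1E peak recurred in each of the 9 other genes of the rule, from 3 words in MT2A to 37 in MT1G. More of them recurred in pseudogenes outside the rule, with 60 in MT1JP and 39 in MT1P3. Some of the 72 words of the MT2A exon 2 peak recurred in 6 of the other genes of the rule, from 3 words each in MT1E, MT1F, MT1G and MT1M to 18 in MT1X. For the MT2A exon 1 peak no 30 nt word recurred in another gene of the rule. A read shorter than the distance between differing bases fits several copies equally well, so the gene named is uncertain at MT1E and MT1H exon 2. For a short read it is also uncertain at the sites of MT2A exon 2, MT1X and MT1H exon 3, whose windows had identical copies. The same holds where a short read falls on the recurring words of the MT2A exon 3 and MT1F peaks. Such words of 30 nt were found in 4 and 7 other genes of the rule. How reads with several matches were handled is not given in the sources used here. Whether the placement of such reads takes part in the change of gene between media was not tested.

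**Figure D4:**
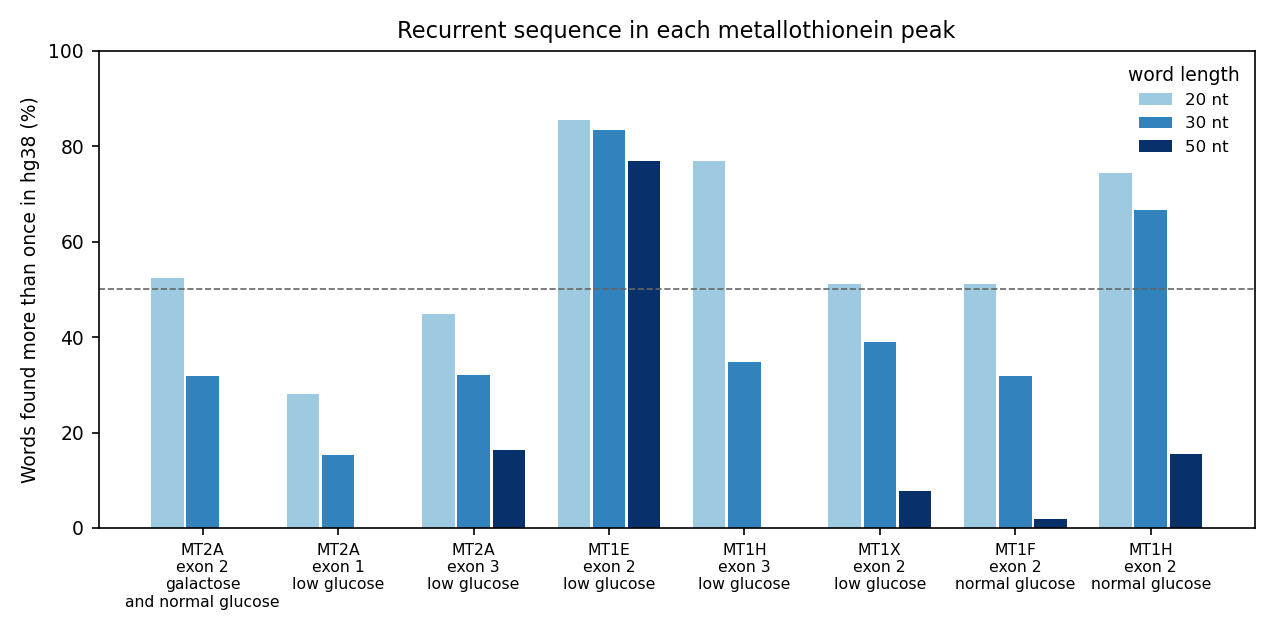
Share of the words in each peak (%) that occur more than once in hg38, for words of 20, 30 and 50 nt, with 1 group of bars per distinct peak and a dashed line at 50%. MT1E in low glucose stays above the line at every word length, and MT1H exon 2 in normal glucose is above it at 20 and 30 nt.

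Most metallothionein peaks rested on a single crosslink site. Of the 8 distinct peaks, 7 had the width of 1 extended site, against 59.1% of the 897 protein coding peaks. The RNA had been trimmed with RNase T1, an enzyme that cuts behind G, and G preceded the middle in 40.9% of the 638 single-site peaks of all lists whose strand could be set. Of the 7 distinct single-site metallothionein peaks, 1 (MT1H exon 3) had a G there, 4 had an A and 2 had a T. The 4 with an A were the exon 2 peaks of MT2A, MT1E, MT1H and MT1X. Their middles stand at coding base 65 or 66 of near-identical copies, so these 4 are not independent sites. GC content ran between 51.5 and 65.3% with a median of 58.6%, and the median of all protein coding peaks was 58.9%. None of the 8 peaks held the letters ATTTA, the core of AU-rich elements, which were found in 6.47% of protein coding peaks.

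Of 51 genes that handle metals or answer to them, 4 were listed, with 1 gene in the galactose list, 1 in the low glucose list and 3 in the normal glucose list. All 51 are protein coding, and of the 20046 annotated protein coding genes 2.79% were listed in any medium, with 1.1% in the galactose list, 1.54% in the low glucose list and 1.38% in the normal glucose list. The ferritin genes, whose proteins store iron, were met in their exons. FTH1, the heavy chain, had a 5'UTR peak in galactose (chr11:61967516-61967616). FTL, the light chain, had a 5'UTR peak in low glucose (chr19:48965256-48965429), and in normal glucose it had an overlapping 5'UTR peak (chr19:48965263-48965454) and CDS peaks at chr19:48965801-48965901 and chr19:48966548-48966648. Of the 30 nt words, 54.2% in the FTH1 peak and 61.1% in the FTL peak at chr19:48965801-48965901 recurred in hg38, so the gene named there is uncertain too. MTF1, which drives metallothionein transcription, had an intronic peak in normal glucose (chr1:37841032-37841139), and so had SLC39A11, a zinc carrier (chr17:72663884-72664072). Both intronic peaks were also annotated to a further gene. The other 47 genes, among them all carriers of the SLC30A family, had no peak in any list.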

How the data were processed

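GAPDH CLIP-seq had been run in 6 samples of MOLM-13 cells, 2 for each medium (galactose, low glucose, normal glucose). According to the labels and the study's methods, the authors trimmed the reads with cutadapt, mapped them to hg38 with STAR and called crosslink sites with PureCLIP, and neighbouring sites were merged and solitary ones extended. Versions of cutadapt and STAR are not given in the sources used here. The deposited lists, 1 per medium with both samples joined, hold chromosome, start, end, Ensembl identifier and symbol, and no counts, strands or scores, so no test between media was possible.

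Whether the deposited starts are counted from 0 or 1 is not given in the sources used here. Starts and ends were read as counted from 1 with both ends included, and the exact bases named depend on this reading. Of 449, 623 and 704 rows in galactose, low glucose and normal glucose, 445, 619 and 701 had their identifier in GENCODE release 44, which gave strand and transcripts. The region was read at the middle of a peak over every transcript of the gene, and where transcripts differed, CDS took precedence, then 5'UTR, then 3'UTR, then intron. Coding places refer to the 3-exon transcripts MT2A-201, MT1E-201, MT1F-201, MT1H-201 and MT1X-201. Peaks with at least 1 nt of overlap were called shared. Intervals are exact Clopper-Pearson 95% intervals. Recurrent words were counted over the assembled chromosomes and the mitochondrial sequence of hg38, and its unplaced and alternate sequences were not searched. Edits were found with edlib 1.3.9.post1. The steps ran in Python 3.11.15 with SciPy 1.17.1, and the word counts and regions were tested on made-up sequences.

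The metallothionein genes, the list of metal-handling genes and the markers were chosen with earlier results of these data known. Named were every metallothionein with a row, every listed metal-handling gene and every listed gene between NUP93 and BBS2.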

Additional observations from a re-analysis of the deposited data

How the results depend on the processing

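Of 61 alternative values, 45 were classed as the same and 16 as moved, and none changed the number of metallothionein peaks or genes of a list by more than 1.5 times. The classes are coarse for small counts. Without recurrent peaks the genes fell from 4 to 3 in low glucose and from 3 to 2 in normal glucose. With 3'UTR put before CDS, the CDS positions fell from 7 to 5. All of these were classed as the same, whereas a share that went from 39.4 to 35.9% was classed as moved. Where places of different genes counted as shared if their coding places lay within 10 nt, galactose and low glucose shared 1 place in place of 0, and low and normal glucose shared 2 in place of 0. With 3'UTR put before CDS, 2 positions fell in the 3'UTR in place of 0. Peaks over 50% recurrent numbered 6 with words of 20 nt and 1 with words of 50 nt, against 2 with 30 nt. A G was found at 0 of 7 sites when starts were counted from 0, and at 0 when the middle itself was read, against 1. The share of G over all single-site peaks under these readings is not given here. Without peaks annotated to a further gene, 1 metal-handling gene remained in normal glucose in place of 3.

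The share of listed genes found in 1 medium and not another moved likewise. Without peaks of several genes, and then with protein coding genes alone, it was 46 and 42.7% for low against normal glucose (36.9% in the full lists), 32.3 and 35.9% for normal against low glucose (39.4%) and 32.2 and 31.5% for galactose against normal glucose (25.8%). It was 41.4% without peaks of several genes for normal glucose against galactose (48.9%), and 24.3% with protein coding genes for galactose against low glucose (20.9%). For low against normal glucose the share was smaller than the reverse in the full lists and larger under both alternatives.

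No paired analysis was possible because the samples of each medium were joined into 1 list, and for the same reason leaving out a sample was not possible.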
